A study of Mus musculus with 12 samples.

Results

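Genomic imprinting marks the maternal and paternal copies of a gene differently during gamete formation, so that a marked gene is read mainly from a single parental copy. Paternally expressed genes such as Dlk1, Mest, Peg3 and Igf2 are known mostly as promoters of fetal growth and of a progenitor state, and maternally expressed genes such as Cdkn1c and Grb10 as brakes on growth, while the noncoding RNAs H19, Meg3 and Rian are read from the opposite parental copy of the same domains as Igf2 and Dlk1. Fibroblasts of the embryo express many of these genes, which makes them a common cell type for the study of imprinting. The set described here was listed by name as 10 imprinted growth regulators and noncoding RNAs: Dlk1, Cdkn1c, Grb10, Plagl1, Ndn, Peg3, Mest, H19, Meg3 and Rian. Of these, 7 were analysed, all of them protein-coding, each under 1 identifier and each with a mean of at least 1 TPM, a level scaled for transcript length and library size, out of 34866 genes in the table. H19, Meg3 and Rian were not analysed here, so the values below are those of imprinted protein-coding genes and the noncoding part of the label was not checked.

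RNA came from mouse embryonic fibroblasts (MEFs) of 4 groups with 3 cultures each: male wild type (WT), male knockout (KO), female WT and female KO. All cells were derived from 129S1/SvImJ embryos of 13 days, Sirt3+/+ for WT and Sirt3-/- for KO, and all groups share immortalization with the SV40 T antigen, passage 6 and collection 48 h after seeding. The paper names separate mouse stocks for WT and KO and gives this strain name with the WT stock. Stock of origin therefore cannot be told apart from genotype. Sirt3 is the main deacetylase of the mitochondrial matrix, and the study asked how its loss changes expression in each sex. Embryos were sexed by PCR for Sry, and the number of lines behind a group is not given in the sources used here. The p-values therefore measure the spread between cultures, and line, sex and genotype cannot be told apart if each group is 1 line. The strain is inbred and TPM hold no allele information, so none of the values says which parental copy was read. In bulk RNA, fewer cells that express a gene and less of its RNA per cell cannot be told apart.

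Between 12256 and 12637 genes reached 1 TPM in a library, and the depth behind the TPM is unknown. The label checks came first. Sirt3 mRNA was not lower in the libraries labelled KO (means of 7.61 TPM in male WT, 10.3 in male KO, 7.90 in female WT and 8.27 in female KO). KO minus WT was 0.39 on the log2(TPM+1) scale in males (adjusted p = 0.0981) and 0.059 in females (adjusted p = 0.772). KO below therefore means a library labelled KO, and in these RNA values every direction drawn from it rests on that label. The paper names a knockout mouse stock as the source of the KO cells. It also includes an immunoblot of Sirt3 protein, which was not assessed here. Of 4 Y-linked genes, Ddx3y was at most 0.218 TPM and Eif2s3y at 0 in the female libraries and both were at least 31.7 TPM in the male libraries, Kdm5d was at most 0.682 TPM in female and at least 9.01 TPM in male libraries, and Uty ran from 2.38 to 6.05 TPM in female and from 9.83 to 13.2 TPM in male libraries. Xist, also listed for the label checks, was not analysed here, so the sex labels were checked on Y-linked genes only. Of 11 fibroblast markers 10 had a mean of at least 1 TPM, with a summed level of 10250 to 11370 TPM in male WT, 12390 to 13090 in male KO, 8194 to 8338 in female WT and 10420 to 10680 in female KO. Of these 10, 4 were higher and 1 was lower in male KO than in male WT MEFs, and 8 were higher in female KO than in female WT MEFs. At an adjusted p under 0.05, 10.7% of all genes tested were higher and 10.9% lower in males, and 5.63% higher in females. The summed level of 5 epithelial markers, mostly Krt19, ran from 76.0 to 77.8 TPM in male WT, 7.90 to 8.78 in male KO, 19.7 to 22.7 in female WT and 7.40 to 10.2 in female KO. The 4 neural markers summed to 138 to 145 TPM in male WT, 90.7 to 105 in male KO, 171 to 182 in female WT and 108 to 125 in female KO. Nes and Map2, which made up most of these sums, were lower in KO MEFs of both sexes. Sox2 was lower in male KO MEFs (14.1 ± 2.07 TPM in WT, where values after ± are SD with n = 3 here and below, and 1.14 ± 0.770 TPM in KO) and higher in female KO MEFs (2.20 ± 0.220 and 6.31 ± 0.161 TPM), and Tubb3 was higher in male KO MEFs (10.2 and 13.2 TPM) and did not pass in females. The muscle markers summed to 5.71 to 6.60 TPM in female WT, nearly all of it Des, and to at most 0.344 TPM in the other groups, with Myf5 at 0. Endothelial markers summed to 4.58 to 5.68 TPM in female WT, mostly Kdr, which was lower in female KO MEFs (difference -1.06, adjusted p = 0.00368), and to at most 2.20 TPM in the other groups. Blood markers summed to between 3.98 and 10.02 TPM with Adgre1 at 0. Trophoblast markers, of interest because many imprinted genes are placental, summed to at most 0.974 TPM with Cdx2 at 0. The part of the fibroblast, epithelial, neural, muscle and endothelial sums, which differed between the groups, in the results below was not tested.

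Dlk1 and Cdkn1c were the members whose response to the knockout differed between the sexes. Dlk1 was lower in male KO than in male WT MEFs and 2.40 times as high in female KO as in female WT MEFs. Cdkn1c fell in male KO MEFs, where the WT mean was 2.26 times the KO mean, and in females it did not pass the test. Grb10 was nearly flat over all 12 libraries. Igf2, the best known neighbour of these genes, was lower in KO MEFs of both sexes. The plot of member levels by library shows all 7 genes.

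**Figure D1:**
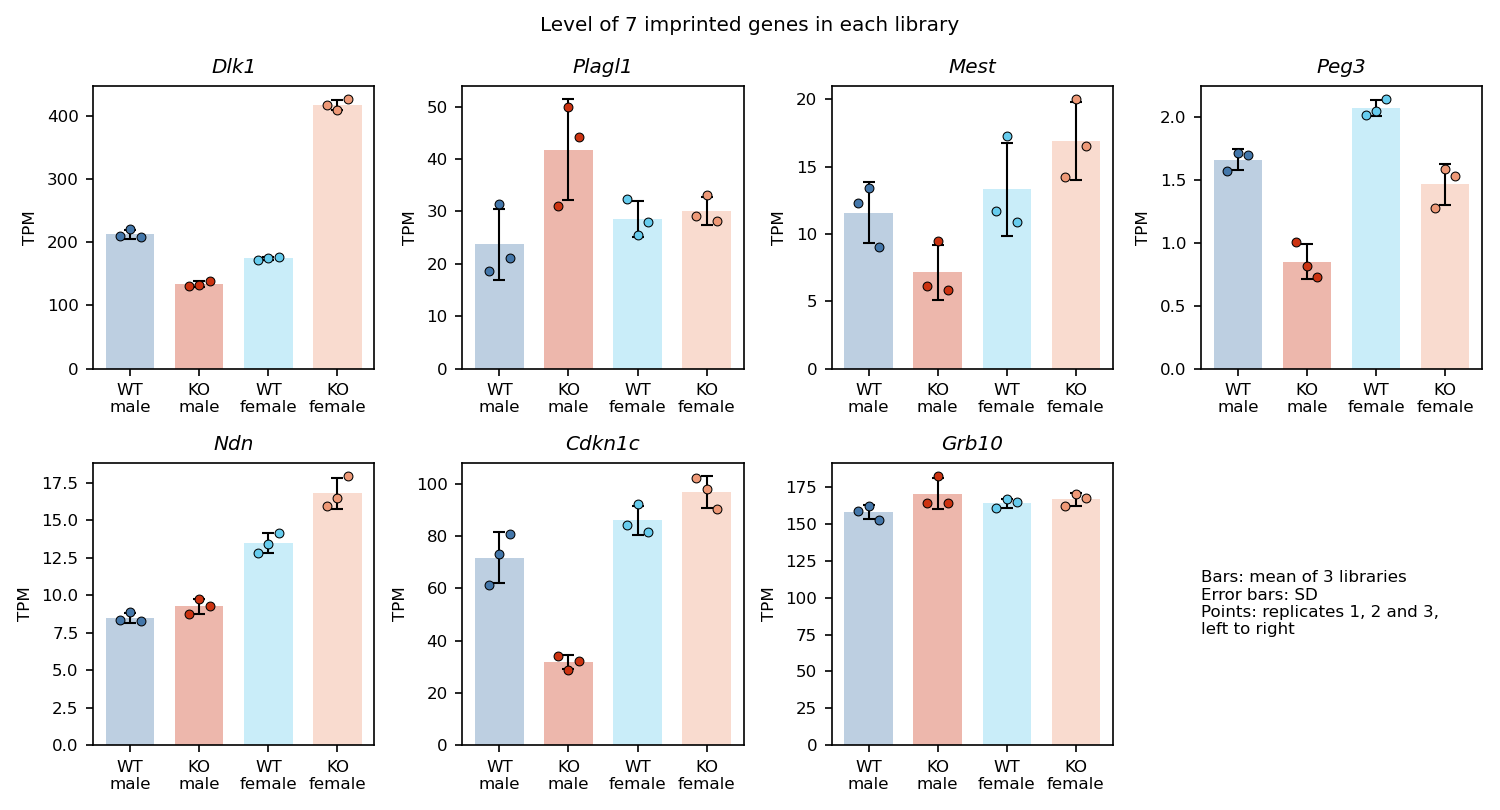
Level in TPM (vertical axes, each starting at 0) of the 7 analysed imprinted genes in WT and KO MEFs of each sex, where bars are means of 3 libraries, error bars are SD and points are the libraries. Dlk1 is highest in female KO (410.4 to 426 TPM), Cdkn1c is lowest in male KO (28.9 to 34.1 TPM), and Grb10 lies between 153 and 183 TPM everywhere.

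The windows before 2 of the start sites are shown because the report turns on Dlk1 and because Plagl1, itself a member, binds DNA. Each is the 250 bases upstream of the start site in GRCm38.p6, taken from RefSeq and written 5′ to 3′ on the strand of the gene. In the Dlk1 window (chr12:109452573-109452822, plus strand) capitals mark the CG pairs, the bases that can carry the methylation used in imprinting, and in the Peg3 window (chr7:6730420-6730669, minus strand) capitals mark the recognition sequence of the Plagl1 protein, GGGGCCCC, which reads the same on both strands.
Dlk1: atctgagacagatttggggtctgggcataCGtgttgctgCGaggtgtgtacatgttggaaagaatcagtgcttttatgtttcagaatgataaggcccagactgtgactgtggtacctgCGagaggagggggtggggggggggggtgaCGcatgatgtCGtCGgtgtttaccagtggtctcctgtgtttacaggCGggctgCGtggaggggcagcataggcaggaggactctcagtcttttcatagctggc
Peg3: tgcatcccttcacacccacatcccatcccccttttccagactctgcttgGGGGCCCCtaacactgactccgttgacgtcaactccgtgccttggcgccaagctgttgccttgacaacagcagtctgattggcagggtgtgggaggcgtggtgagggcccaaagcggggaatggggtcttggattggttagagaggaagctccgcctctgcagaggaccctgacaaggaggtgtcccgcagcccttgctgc

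The recognition sequence begins at position -201 from the Peg3 start site. Over windows of 300 bases (250 before and 50 after each start), it was present in 1 of the 9 windows of the 6 members that matched (all but Cdkn1c), and in 354 of 32851 promoters of the mouse, which is 1.08%. Its presence is a description of these letters and not of binding. CG pairs numbered 9 in the Dlk1 window of 300 bases, and 45.8% of all promoters had as many or more. Grb10 lay at the other end, with 45 CG pairs in its upstream-most window, a number that 1.93% of promoters reached, and 9 in the other, and Plagl1 had 26 (16.9%). The Mest windows held 8, 17 and 17, Ndn 11 and Peg3 13, against a median of 7 over all promoters.

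Dlk1 encodes a transmembrane protein with EGF-like repeats, shed in a soluble form, that holds preadipocytes and other progenitors undifferentiated. It lies on chromosome 12 of GRCm38 from 109452823 to 109463336, plus strand (ENSMUSG00000040856.17), at the head of the domain that also holds Meg3 and Rian. Its level in replicates 1 to 3 was 209.7, 221 and 208 TPM in male WT and 130.4, 133 and 139 TPM in male KO MEFs. Female cells had 171, 175 and 177 TPM in WT and 417, 410.4 and 426 TPM in KO. All 4 groups were separate, in the order male KO, female WT, male WT and female KO, and the KO groups lay at the opposite ends of that order. On the log2(TPM+1) scale, on which all differences here are given, male KO minus male WT was -0.67 (SE 0.042, adjusted p = 8.37e-05) and female KO minus female WT was 1.26 (SE 0.028, adjusted p = 9.1e-06). All adjusted p-values are limma values with the Benjamini-Hochberg method over the 12504 genes tested. The male effect minus the female effect was -1.92 (SE 0.049, adjusted p = 2.11e-09). Between the sexes, Dlk1 was higher in male than in female WT MEFs (difference 0.29, SE 0.036, adjusted p = 0.00306) and lower in male than in female KO MEFs (difference -1.64, SE 0.036, adjusted p = 1.93e-06), where the female mean was 3.12 times the male mean. The order of the sexes was thus the reverse in KO of what it was in WT.

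Of the genes around Dlk1 on chromosome 12, Begain, Wars and Ppp2r5c were tested, and none of them passed in opposite directions in the sexes. Begain, the nearest listed gene on its proximal side, had means between 3.57 and 4.73 TPM in the 4 groups and passed no test (male difference -0.046, adjusted p = 0.919, and female difference 0.22, adjusted p = 0.417). Wars, a tryptophanyl-tRNA synthetase gene further out, rose in male KO MEFs from 73.9 ± 2.53 to 89.3 ± 0.741 TPM, with a difference of 0.27 (adjusted p = 0.00581), and stood at 72.6 TPM in WT and 75.2 TPM in KO MEFs of females. Rtl1 and Dio3, the paternally expressed genes on the far side of Meg3, had means of 0.154 and 0.69 TPM over the 12 libraries and were under the filter of 1 TPM. Of the receptors that Dlk1 is described to act through, Notch1 was higher in male KO MEFs (difference 0.56, adjusted p = 0.0341), a call kept in 1 of the 6 fits that each left out a library, and Notch2 and Notch3 passed no knockout test.

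Cdkn1c, the gene of the cyclin-dependent kinase inhibitor p57Kip2, stops cells in the first gap phase of the cycle and is read from the maternal copy. The gene lies on chromosome 7 from 143458339 to 143461050, minus strand (ENSMUSG00000037664.13), where its span shares 892 bases with that of an antisense gene, Gm44732. Whether their exons overlap was not checked. No strand of counting is given, so reads from any shared exon cannot be told apart. In males the level of Cdkn1c was 61.3, 73.1 and 80.7 TPM in WT and 34.1, 28.9 and 32.1 TPM in KO. Female cells had 84.3, 92.2 and 81.5 TPM in WT and 102, 98.0 and 90.3 TPM in KO. Male KO MEFs were the lowest group, well apart from male WT, and the female groups overlapped at the top. The male difference was -1.15 (SE 0.11, adjusted p = 0.000542), whereas the female difference of 0.17 did not pass (SE 0.065, adjusted p = 0.149, 95% interval 0.016 to 0.33). The knockout effect differed between the sexes by -1.32 (SE 0.14, adjusted p = 6.02e-05). In KO MEFs the female mean was 3.06 times the male mean (difference -1.58, SE 0.077, adjusted p = 2.76e-05), and in WT MEFs the sexes did not pass the test (difference -0.27, adjusted p = 0.147).

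Of the cell cycle partners of Cdkn1c, Cdk4 was slightly lower in male KO MEFs (difference -0.19, adjusted p = 0.0155, and 0.0539 without replicate 2 of male WT), Ccne1, which encodes a cyclin of the entry into DNA replication, was higher in female KO MEFs (31.9 ± 1.09 TPM in WT and 41.7 ± 2.70 TPM in KO, difference 0.37, adjusted p = 0.0131, and 0.052 without replicate 1 of female WT), and Cdk2 and Ccne2 passed neither knockout test.

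Grb10 encodes an adaptor protein that binds the insulin and IGF1 receptors and damps their signal. Its position is chromosome 11 from 11930508 to 12038683, minus strand (ENSMUSG00000020176.17). Its level was 159, 162 and 153 TPM in male WT, 165, 183 and 165 TPM in male KO, 161, 167 and 165 TPM in female WT and 162, 171 and 168 TPM in female KO MEFs. All neighbouring groups overlapped. The knockout difference was 0.11 in males (95% interval -0.018 to 0.23, adjusted p = 0.202) and 0.022 in females (95% interval -0.056 to 0.10, adjusted p = 0.716). The receptors it acts on, Insr and Igf1r, passed neither knockout test.

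Plagl1 encodes a zinc-finger transcription factor that slows proliferation and controls other genes of the imprinted network. On chromosome 10 it lies from 13060504 to 13131694, plus strand (ENSMUSG00000019817.18). In males its level was 18.6, 31.3 and 21.2 TPM in WT and 31.1, 49.9 and 44.2 TPM in KO. In females it was 32.3, 25.4 and 28.01 TPM in WT and 29.0, 33.1 and 28.1 TPM in KO. The lowest male KO library lay just under the highest male WT library, and the female groups were mixed. Plagl1 rose in male KO MEFs (difference 0.80, SE 0.23, adjusted p = 0.0478), with a KO mean 1.76 times the WT mean. That call did not survive the loss of replicate 1 or 3 of male WT or of replicate 2 or 3 of male KO, with adjusted p-values from 0.131 to 0.134. The female difference was 0.075 (adjusted p = 0.695), and the male minus the female effect, 0.72, did not pass (adjusted p = 0.121).

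Ndn encodes necdin, a growth suppressor of neurons and other postmitotic cells that binds E2F1 and p53. It lies on chromosome 7 from 62346569 to 62350262, plus strand (ENSMUSG00000033585.5), in the domain of Magel2, Mkrn3 and Snrpn, and its whole span of 3694 bases lies within that of the lincRNA gene Gm32061 on the opposite strand. Its level was 8.34, 8.87 and 8.25 TPM in male WT and 8.71, 9.71 and 9.29 TPM in male KO. In female cells it was 12.8, 13.4 and 14.1 TPM in WT and 15.9, 16.4 and 17.9 TPM in KO. Every female library was above every male library. Ndn was lower in male than in female MEFs in both genotypes, with a difference of -0.61 in WT (SE 0.081, adjusted p = 0.00395) and -0.80 in KO (SE 0.087, adjusted p = 0.00112), and the female mean was 1.59 and 1.82 times the male mean. The female KO libraries lay above the female WT libraries without overlap, a separation that was not counted over all genes. The difference of 0.30 did not pass (SE 0.078, adjusted p = 0.0565). In males it was 0.11 (adjusted p = 0.442).

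Of the other tested genes of the Ndn domain, Peg12 passed between the sexes in both genotypes and Snrpn in KO MEFs only. Peg12, another paternally expressed gene there, was lower in male than in female WT MEFs (8.36 ± 0.950 and 12.04 ± 0.806 TPM, difference -0.48, adjusted p = 0.0281, kept in 1 of the 6 fits that left out a library) and in KO MEFs (7.86 and 14.5 TPM, difference -0.81, adjusted p = 0.00191). Snrpn, which encodes a spliceosomal protein, passed the same test in KO MEFs (3.47 and 7.21 TPM, difference -0.89, adjusted p = 0.00823) but not in WT MEFs (4.90 and 5.71 TPM, adjusted p = 0.449). Mkrn3, Snurf, Ube3a and Atp10a passed between the sexes in neither genotype, and Magel2 had a mean of 0.042 TPM and was not tested. Atp10a, at the far end of the domain, was lower in male KO than in male WT MEFs (12.5 ± 0.479 TPM in WT and 8.61 ± 0.831 TPM in KO, difference -0.50, adjusted p = 0.0127).

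Peg3 encodes a zinc-finger protein expressed from the paternal copy and known for roles in growth, apoptosis and maternal behaviour. It lies on chromosome 7 from 6703892 to 6730431, minus strand (ENSMUSG00000002265.16), and was the least abundant member. In males its level was 1.57, 1.72 and 1.70 TPM in WT and 1.01, 0.820 and 0.728 TPM in KO. In females it was 2.02, 2.05 and 2.14 TPM in WT and 1.28, 1.59 and 1.53 TPM in KO. KO libraries lay below WT libraries of their sex without overlap in both sexes. How many of all genes tested separated in this way was not counted. Neither Peg3 difference passed the test at this low level, where the added 1 TPM shrinks a fold. The difference was -0.53 in males (SE 0.16, adjusted p = 0.0618), with a WT mean 1.95 times the KO mean, and -0.32 in females (SE 0.14, adjusted p = 0.203). In fits without a mean-variance trend both passed (adjusted p = 0.00659 in males and 0.0398 in females). Its described partners in apoptosis, Siah1a and Traf2, passed neither knockout test, and its neighbours Usp29 and Zim1 were under the filter.

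Mest encodes a hydrolase of the endoplasmic reticulum that marks mesoderm and expanding fat tissue. Its position is chromosome 6 from 30723547 to 30748465, plus strand (ENSMUSG00000051855.15), and overlaps the opposite-strand gene Copg2 by 912 bases. The microRNA gene Mir335 lies inside it on the same strand (chr6:30741299-30741396). Its mature products are shown because they are read from the same locus as Mest. They were not measured in these polyadenylated libraries, and capitals mark the seed, bases 2 to 8, in the RefSeq sequences.
mmu-miR-335-5p: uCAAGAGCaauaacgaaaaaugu
mmu-miR-335-3p: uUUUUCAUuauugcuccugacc

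The level of Mest in males was 12.3, 13.4 and 9.05 TPM in WT and 6.10, 9.51 and 5.81 TPM in KO. In females it was 11.7, 17.3 and 10.9 TPM in WT and 14.2, 20.0 and 16.5 TPM in KO. Neighbouring groups overlapped, but the male KO libraries were all below the female KO libraries. That sex difference among KO MEFs was -1.15 (SE 0.20, adjusted p = 0.00863), with a female mean 2.37 times the male mean. Neither knockout difference passed, at -0.64 in males (SE 0.21, adjusted p = 0.0726) and 0.34 in females (SE 0.19, adjusted p = 0.31), and the difference between these effects was -0.98 (SE 0.30, adjusted p = 0.0583). In each of the 4 groups replicate 2 held the highest Mest value, a trait that was not counted over all genes. Copg2 passed no knockout test (male difference 0.036, adjusted p = 0.924, and female difference -0.16, adjusted p = 0.673).

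Counted over the set, 3 of the 7 members passed in males, 1 higher (Plagl1) and 2 lower (Dlk1 and Cdkn1c), against 21.6% of all genes tested (10.7% higher and 10.9% lower). In females 1 passed, Dlk1, which was higher, against 11.5% of all genes (5.63% higher and 5.84% lower). Dlk1 and Ndn passed between the sexes in WT MEFs, where 12.8% of genes passed. In KO MEFs 4 members (Dlk1, Cdkn1c, Mest and Ndn) passed, all lower in males, where 16.6% of genes passed (8.17% higher and 8.39% lower in males). The interaction passed for 2 members (Dlk1 and Cdkn1c), against 13.0% of genes. With 7 genes these shares are descriptions. The median difference of the members was -0.53 in males and 0.17 in females, beside -0.015 and -0.023 over all genes, and -0.80 between male and female KO MEFs beside -0.013 over all genes. Between male and female WT MEFs it was -0.21, beside -0.018 over all genes, and for the interaction -0.21, beside 0.0047. These comparisons share libraries: each KO group enters both a knockout and a sex comparison.

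**Figure D2:**
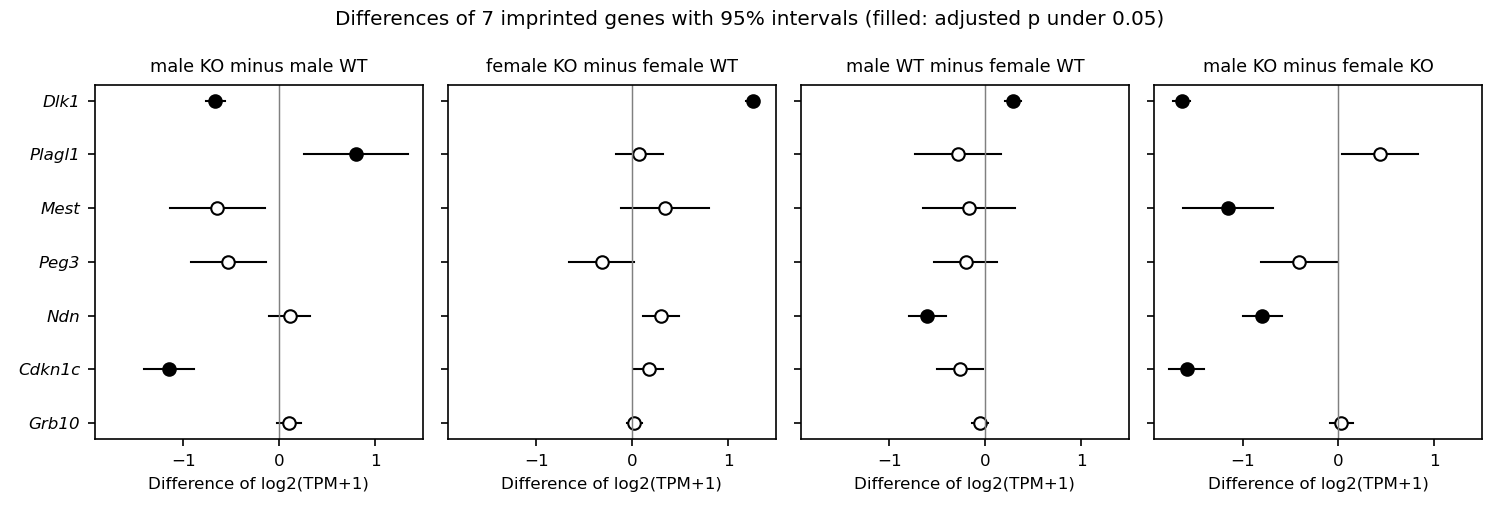
Difference of log2(TPM+1) (horizontal axis) of the 7 members in the comparisons of genotype within sex and of sex within genotype, where points are limma estimates, lines are 95% intervals, and filled points have an adjusted p under 0.05 over all genes. Dlk1 lies at -0.67 for males and at 1.26 for females, and in KO MEFs Dlk1, Cdkn1c, Mest and Ndn lie to the left of 0.

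Igf2, the fetal growth factor whose domain H19 shares, was read as a neighbour and not as a member. It lies 1.77 Mb from Sirt3 on chromosome 7, and Cdkn1c lies 2.58 Mb from it. Its level was 237, 244 and 222 TPM in male WT and 141, 162 and 142 TPM in male KO. Female cells had 331, 341 and 334 TPM in WT and 174, 155 and 149 TPM in KO. Every KO library was below every WT library of either sex. The difference was -0.66 in males (SE 0.065, adjusted p = 0.000627) and -1.07 in females (SE 0.057, adjusted p = 0.000171), and these differed from each other by 0.41 (SE 0.092, adjusted p = 0.0116). Igf2 was lower in male than in female WT MEFs (difference -0.52, adjusted p = 0.000428), while in KO MEFs the sexes did not pass (difference -0.10, adjusted p = 0.421).

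Of the other tested genes of distal chromosome 7, Mrpl23 passed in males only, like Cdkn1c, and the rest passed in neither sex. The plot ordered by distance from Sirt3 shows them. Mrpl23, a mitochondrial ribosomal protein gene beside H19, was lower in male KO MEFs (21.6, 31.8 and 30.6 TPM in WT and 12.3, 14.1 and 15.8 TPM in KO, difference -0.93, adjusted p = 0.00741) and had a difference of 0.028 in females (adjusted p = 0.929). That contrast between the sexes passed the interaction test (-0.96, adjusted p = 0.0198), but not without replicate 3 of male WT (-0.89, adjusted p = 0.0509). Phlda2, a placental growth suppressor beside Cdkn1c, was 4.09, 2.67 and 7.21 TPM in male WT and 2.42 TPM in replicate 1 of male KO, and it was listed at 0 in the other two. In females it was 3.19, 1.06 and 1.95 TPM in WT and 1.001 TPM in replicate 2 of KO, with the other two listed at 0. Neither difference of Phlda2 passed (adjusted p = 0.0507 in males and 0.0883 in females). Cd81, Tssc4, Nap1l4 and Osbpl5, in the same stretch, passed neither knockout test.

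**Figure D3:**
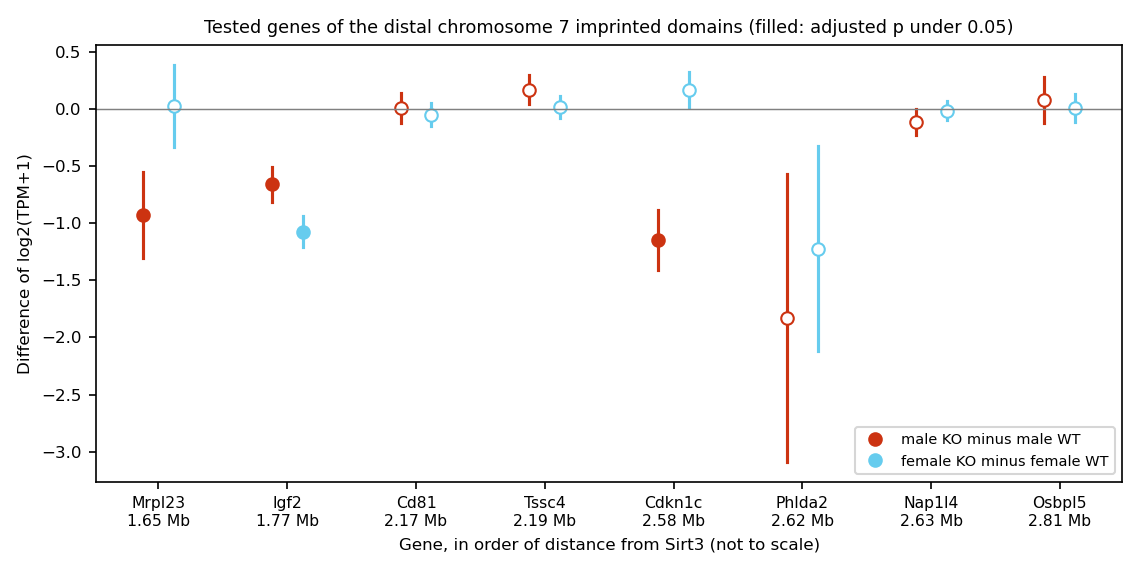
Difference of log2(TPM+1), KO minus WT (vertical axis), for the 8 tested genes of the imprinted domains of distal chromosome 7, in order of their distance from Sirt3 (horizontal axis, not to scale), where lines are 95% intervals and filled points have an adjusted p under 0.05. Igf2 is below 0 in both sexes, Mrpl23 and Cdkn1c are below 0 in males, and Cd81, Tssc4, Nap1l4 and Osbpl5 have open points in both sexes.

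Over all 41 listed neighbours of the members' domains, 36 were analysed and 22 passed the filter of 1 TPM. In males 3 of the 22 were higher (Wars, Phactr2 and Cobl) and 3 lower (Igf2, Mrpl23 and Atp10a), with a median difference of -0.061. In females Igf2 was lower and none was higher, with a median of 0.014. Over all genes tested, 10.7% were higher and 10.9% lower in males, and 5.63% and 5.84% in females. Phactr2, the actin regulator gene beside Plagl1, rose from 0.830 ± 0.291 to 2.56 ± 0.265 TPM in male KO MEFs (difference 0.97, adjusted p = 0.011), and in females it was 0.459 TPM in WT and 1.16 TPM in KO (difference 0.58, adjusted p = 0.122). Cobl, the actin nucleator gene beside Grb10, rose from 1.40 ± 0.235 to 3.13 ± 0.263 TPM in male KO MEFs (difference 0.79, adjusted p = 0.0116) and had a difference of -0.26 in females (adjusted p = 0.407). The Cobl effects differed between the sexes (1.05, adjusted p = 0.0103).

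Among 35 other imprinted genes, 32 were analysed and 19 tested. In males 1 was higher (H13, difference 0.21, adjusted p = 0.0473, a call kept in 1 of the 6 fits that left out a library) and 2 were lower, with a median of 0.054, and in females 2 were higher and 4 lower, with a median of -0.065. The shares over all genes tested were 21.6% in males and 11.5% in females. Gatm, which makes the creatine precursor guanidinoacetate, fell in both sexes. Its level was 11.4, 11.7 and 13.5 TPM in male WT, 5.64, 6.27 and 6.22 TPM in male KO, 7.16, 6.98 and 6.14 TPM in female WT and 0.735, 1.27 and 0.916 TPM in female KO, so that female KO MEFs were far below all others. The difference was -0.90 in males (adjusted p = 0.00131) and -1.98 in females (adjusted p = 0.000586), and the female effect was larger (interaction 1.08, adjusted p = 0.00148).

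Zdbf2, a paternally expressed gene, was 1.58, 1.61 and 1.89 TPM in male WT and 0.252, 0.260 and 0.124 TPM in male KO (difference -1.15, adjusted p = 0.00475), and 1.21 TPM in WT and 1.22 TPM in KO of females (difference 0.028, adjusted p = 0.953). Like Dlk1 and Cdkn1c it passed the interaction test (-1.18, adjusted p = 0.0161). Dcn, the proteoglycan decorin and also a fibroblast marker, rose in female KO MEFs from 6.995 ± 1.42 to 16.1 ± 1.14 TPM (difference 1.11, adjusted p = 0.00497), and in males its difference of 0.48 did not pass (adjusted p = 0.0842). Herc3 (difference -0.71, adjusted p = 0.0323) and Peg10, a retrotransposon-derived gene of the placenta (difference -0.37, adjusted p = 0.0241), were lower in female KO MEFs, and each call was kept in 1 of the 6 fits that left out a library. In males the Peg10 difference of 0.23 did not pass. Its interaction (0.60) passed, also in all 8 alternatives and in all 12 fits that left out a library.

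**Figure D4:**
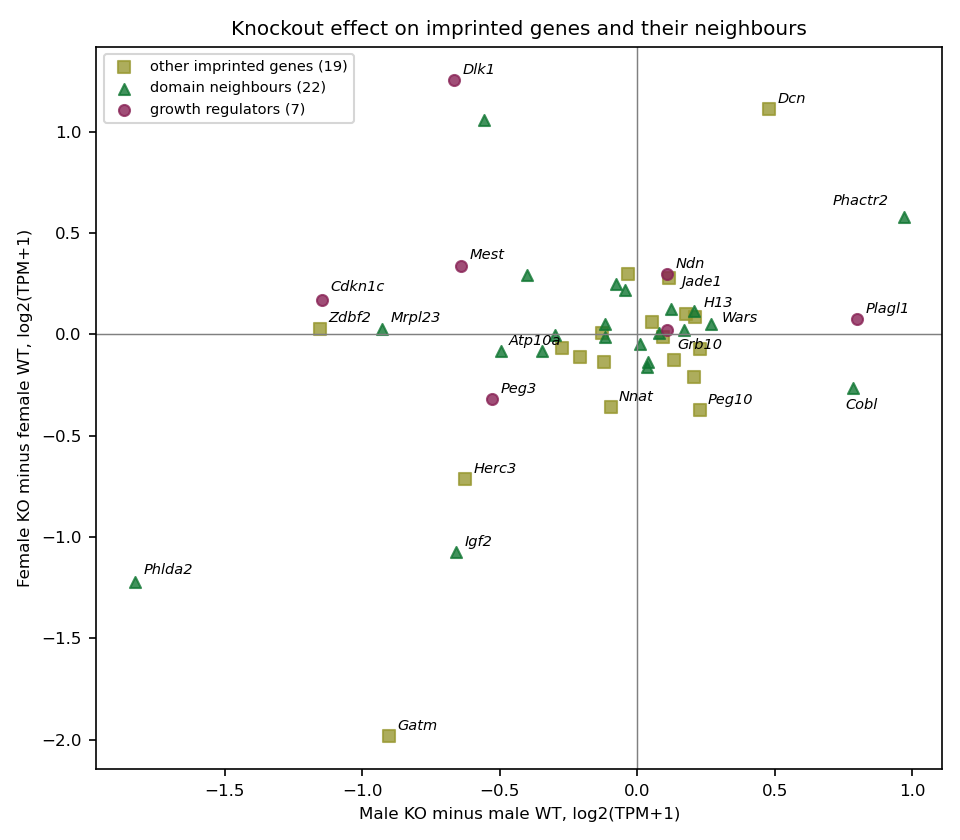
Knockout effect in males (horizontal axis) against that in females (vertical axis), both as differences of log2(TPM+1), for the 7 members, 22 neighbours of their domains and 19 other imprinted genes, where members, Phlda2 and genes with an adjusted p under 0.05 in either sex are named. Dlk1 lies in the upper left (-0.67 and 1.26), Igf2 and Gatm in the lower left, and Plagl1 on the right near 0 in females (0.80 and 0.075).

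Of 25 listed genes that set or keep imprints, which cover DNA methyltransferases, TET enzymes, zinc-finger readers and Polycomb subunits, 22 were tested. In males 1 was higher and 3 were lower, with a median difference of 0.0041, and in females 1 was higher and none lower, with a median of -0.052. Beside these counts, 21.6% of all genes tested passed in males and 11.5% in females. Eed, a Polycomb subunit, was lower in male KO MEFs (86.7 ± 6.42 TPM in WT and 59.1 ± 5.29 TPM in KO, difference -0.55, adjusted p = 0.0042). Arid4a (difference -0.44, adjusted p = 0.0174, lost without replicate 2 of male WT, 0.0519, or replicate 3 of male KO, 0.0596) and Tet3 (difference -0.36, adjusted p = 0.0493) were also lower in males, and Tet3 passed in 1 of the 6 fits that left out a library. Uhrf1, which guides the maintenance methyltransferase to replicated DNA, was slightly higher in males (difference 0.23, adjusted p = 0.015, lost without replicate 3 of male WT, 0.0551, or of male KO, 0.0505) and in females (difference 0.14, adjusted p = 0.0447), where the call was lost in all 6 fits that left out a library.

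Of 20 described partners of the members, all of them tested, 2 were higher and 5 lower in males, with a median of 0.010, and 1 was higher and 1 lower in females (Ccne1 and Igf2), with a median of 0.0019. Again, 21.6% of all genes tested passed in males and 11.5% in females, and with 20 genes the counts are descriptions. E2f4, a cell cycle repressor of the family necdin binds, was lower in male KO MEFs (difference -0.39, adjusted p = 0.00151). The RNA-binding proteins of the Igf2 mRNA went both ways in males: Igf2bp2 was lower (93.0 ± 3.54 TPM in WT and 67.7 ± 2.44 TPM in KO, difference -0.45, adjusted p = 0.00108) and Igf2bp3 higher (difference 0.38, adjusted p = 0.0225), the latter kept in 1 of the 6 fits that left out a library. Drosha, which cuts primary microRNAs such as those of H19, Meg3 and Mest, was lower in male KO MEFs (difference -0.26, adjusted p = 0.0214, kept in 2 of those 6 fits).

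To show which genes were most like the members over the 12 libraries, each gene was centred on its mean log2(TPM+1), and likeness was measured as the root mean square difference between centred values, without a test, since all genes share the libraries. For Dlk1, whose own root mean square about its mean was 0.606, the nearest genes were Crabp1 (0.0892), Lrrc15 (0.121) and Galnt17 (0.183). Cdkn1c (own value 0.628) was nearest to Hic1 (0.156), Slc16a11 (0.19) and F2rl1 (0.191), and Ndn (0.372) to F2r (0.0703), Adamts6 (0.087) and Pbdc1 (0.0934). Peg3 (0.275) was nearest to Fez2 (0.0769), Zfp428 (0.0979) and Denr (0.0993). Mest (0.486) and Plagl1 (0.364) had no gene closer than 0.193, which were Gnpda1 and Nrm, followed by Inka1 and Cplx2 for Mest and by Npc1 and Zhx1 for Plagl1. Grb10 varied little (0.0588) and was nearest to Nup93 (0.0356), Baz2a (0.037) and Pea15a (0.0388), whose own spread was not computed. None of these 21 genes is another member.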

How the data were processed

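The authors isolated polyadenylated RNA from 12 cultures, sequenced it as paired-end libraries and quantified it with Salmon against GRCm38 (version 1.10.1 per the submitters' processing notes). They deposited TPM values per gene, which are scaled for transcript length and library size, so read totals and counting error are unknown. The annotation release and the strand of the kit are not given in the sources used here. Of the gene identifiers 99.4% matched GENCODE M21, from which symbols and positions were taken, and 93.6% had the same version. No value column was left unused.

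Because TPM hold no counts, no count model was used. Values were taken as log2(TPM+1), genes averaging under 1 TPM were dropped (12504 were left), and limma (version 3.58.1, R 4.3.3) was fitted with its mean-variance trend. Each comparison of genotype or sex used its 6 libraries, and the sex by genotype interaction used all 12. Two-sided p-values were adjusted by Benjamini-Hochberg over all genes tested, and 0.05 was the threshold. Replicates differed by a root mean square of 0.369 to 0.406 (log2), and no library repeated another. The code was tested on simulated data.

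The members, gene lists and marker lists were chosen with earlier results of these data known. All 10 members were to be described, with listed neighbours past the threshold in a knockout comparison and the genes next to a member, the 4 other imprinted genes with the largest change past the threshold in each knockout comparison, the maintenance factors and partners past the threshold, and the 3 genes nearest in pattern to each member. Peg12, Snrpn, Phlda2, Nnat, Igf2r, Jade1 and genes given as not passing were named after their values were seen. Alternatives were a pseudocount of 0.1, no filter, a 5 TPM minimum, scaling by median of ratios or by quantiles, no trend, all 12 libraries in 1 fit, the replicate number as a block, sums over identifiers and leaving out each library. They were extended to Igf2 and the other lists after the data were seen.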

Additional observations from a re-analysis of the deposited data

Results flagged for a closer look

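Among analysed members and Igf2, the knockout effect differed between the sexes for 3 genes (interaction test in limma over 12 libraries, Benjamini-Hochberg adjustment). Genes of the other lists, among them Mrpl23, Cobl, Gatm and Zdbf2, also passed this test, and 13.0% of all genes tested passed it. The male minus the female effect was -1.92 for Dlk1 (adjusted p = 2.11e-09), -1.32 for Cdkn1c (adjusted p = 6.02e-05) and 0.41 for Igf2 (adjusted p = 0.0116), on the log2(TPM+1) scale. Dlk1 moved in opposite directions, with -0.67 in males and 1.26 in females, lower in 3 of 3 male KO libraries than in any male WT library and higher in 3 of 3 female KO libraries than in any female WT library. Igf2 was lower in KO MEFs of both sexes, by more in females. Groups of 3 libraries were not tested for outlying samples.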

How the results depend on the processing

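TPM without read totals, 3 cultures a group and an unstated number of lines limit these results. The calls and directions of Dlk1, of Igf2 and of Cdkn1c in males and in the interaction were kept under every alternative and without any single library: the male difference of Dlk1 ran from -0.69 to -0.64, its female difference from 1.24 to 1.28, and the male difference of Cdkn1c from -1.25 to -1.06. The number of members called moved in males from 3 to 5 with all 12 libraries in 1 fit (adding Peg3, adjusted p = 0.016, and Mest, 0.0479), and in females from 1 to 2 with median-of-ratios scaling (adding Ndn, 0.0404) and with all 12 libraries in 1 fit (Ndn, 0.0237) and to 3 without a trend (Ndn, 0.0497, and Peg3, 0.0398). Without 1 library it was 2 to 3 in males, 1 in females, 2 between WT sexes, 4 to 5 between KO sexes and 2 to 3 for the interaction.

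Plagl1 in males was lost with a pseudocount of 0.1 (adjusted p = 0.0501), without a filter (0.167) and without a trend (0.0824), and its difference ran from 0.65 to 1.01 when libraries were left out. Between the KO sexes it passed without replicate 1 of male KO (0.0134), and in the interaction without replicate 2 of male WT (0.0268) or replicate 1 of male KO (0.0384). Mest in males passed without replicate 2 of male KO (0.0278), and its interaction passed without replicate 3 of male WT (0.0394), replicate 2 of male KO (0.0216) or replicate 2 of female WT (0.026) and with median-of-ratios (0.0483) or quantile scaling (0.0453). Its difference between KO sexes was lost without a filter (0.0537). Peg3 also passed in males without a filter (0.022) and without a trend (0.00659) and between KO sexes without a trend (0.0284), and it has no value at a mean of at least 5 TPM. Directions reversed for 3 differences that were not called: Plagl1 in females (-0.0030) and Mest between WT sexes (0.017), both without replicate 2 of female WT, and Grb10 between KO sexes (-0.021) without replicate 2 of male KO. Over the left-out libraries these ran from -0.0030 to 0.16, from -0.29 to 0.017 and from -0.021 to 0.055. The cause of these shifts was not tested.

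Same-numbered libraries did not deviate together (correlations from -0.057 to 0.078), so the numbers were not taken as pairs. With the replicate number as a block, 4 members passed in males (Mest added, adjusted p = 0.031), 1 in females, 2 between WT sexes, 4 between KO sexes and 3 in the interaction (Mest, 0.00469). Over all genes the block moved the female count from 1434 to 670, leaving out a library moved it to between 774 and 835, and median-of-ratios scaling moved the share of higher calls from 49.1% to 59.3%. The count between WT sexes fell from 1603 to 1053, 1068 or 1037 without replicate 3 of male WT or replicate 1 or 3 of female WT, and that between KO sexes from 2070 to 1328 without replicate 3 of male KO. In the other lists, the knockout calls of Mrpl23, Atp10a, Cobl, Phactr2, Wars, Gatm, Zdbf2, Eed, E2f4 and Igf2bp2 in males and of Gatm and Dcn in females were kept in all alternatives that gave a value and without any single library. So were the interactions of Cobl, Gatm, Zdbf2 and Peg10 and the sex differences of Peg12 and Snrpn in KO MEFs and of Nnat and Igf2r. The other knockout calls named were lost in at least 1 alternative or without at least 1 library.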

Other observations

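Nnat, an imprinted gene of the neural lineage, had a large sex difference. It was 10.7, 10.9 and 7.97 TPM in male WT and 38.2, 39.1 and 41.3 TPM in female WT MEFs (difference -1.91, adjusted p = 0.000161, limma with Benjamini-Hochberg adjustment), and 9.13 TPM in male KO and 30.7 TPM in female KO MEFs on average (difference -1.65, adjusted p = 0.000149). Its female knockout difference of -0.36 (adjusted p = 0.042) passed in 1 of the 6 fits that left out a library. Igf2r, the receptor that removes Igf2, was lower in male than in female MEFs of both genotypes (difference -0.36, adjusted p = 0.01 in WT and -0.46, adjusted p = 0.00763 in KO).

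Jade1 was higher in female KO than in female WT MEFs by 0.28 (adjusted p = 0.0213), a call kept in 2 of the 6 fits that left out a library. Grb10, like Mest, had its highest value in replicate 2 in all 4 groups, as did Ctcf and Arid4a of the maintenance factors. How often this held over all genes was not counted.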
